A study of Homo sapiens with 8 samples.

Results

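The genes described here encode the folding machinery of the endoplasmic reticulum (ER) and the sensors and targets of the unfolded protein response. They were chosen by symbol: 41 rows of the 62700 rows in the deposited table of gene counts. Of these, 40 passed the filter on low counts and were tested among 17535 genes. WFS1 was not tested. The members were sorted by role into 9 chaperones and co-chaperones, 3 genes of the lectin chaperone cycle, 10 disulfide enzymes, 2 prolyl isomerases, 9 genes of ER-associated degradation, 4 sensors or regulators and 4 genes of translocation and export.

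Poly-A RNA came from THP-1 foam cells. THP-1 is a human monocytic leukaemia line, turned here into macrophages with the phorbol ester PMA at 50 ng/mL for 72 h. Acetylated LDL, added for 48 h, is taken up by scavenger receptors and fills such cells with cholesteryl ester. The 4 auranofin (AF) libraries had 0.5 µM of the drug, a gold-containing inhibitor of thioredoxin reductase, and the 4 DMSO libraries had the vehicle alone, below 0.1% by volume. Both groups therefore share the cell line, the PMA and the lipid load, and no library without the load is analysed here. The protocol gives the drug for 24 h ahead of the lipid and keeps it on to the end, while the design text has it follow the loading. The question was what auranofin does to foam cells.

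Proteins that enter the ER are held by the chaperone BiP (the product of HSPA5) and by the lectins calnexin and calreticulin, and gain their disulfide bonds from protein disulfide isomerases that are reoxidised by ERO1. Chains that do not fold are drawn back into the cytosol and degraded by the proteasome. When unfolded chains build up, the membrane proteins IRE1 (ERN1), ATF6 and PERK (EIF2AK3) send signals to the nucleus: IRE1 splices the XBP1 message, ATF6 is cut to release a transcription factor, and PERK slows translation and favours that of ATF4. Macrophages loaded with sterol are a known setting of this response.

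Libraries held between 19336073 and 32325981 counts. AF replicate 1 stood apart, with 34.8% of its counts in 27 rows of ribosomal DNA, against 0.745% to 0.966% in the other 7 libraries. Levels are given as CPM, a gene's share of the library scaled with edgeR's TMM factors, which allow for this. The 15 macrophage markers summed to between 10431 and 11473 CPM in AF and between 10126 and 11216 CPM in DMSO, and the lowest value of any of them in a library was 2.54 CPM, for MRC1. Single markers moved both ways under this sum. CTSD, ITGAM, CD14 and CTSB were called higher (log2 fold changes of 0.43, 0.43, 0.33 and 0.27), MRC1, LYZ, MSR1 and AIF1 lower (-1.50, -0.945, -0.73 and -0.23), and 7 were not called (edgeR). MRC1, LYZ and MSR1 changed by more than any tested member described here, and the part of these shifts in the results was not tested. The 22 markers of T cells, B cells, epithelium, fibroblasts, endothelium and erythroid cells summed to between 7.12 and 8.07 CPM in AF and between 8.47 and 9.89 CPM in DMSO. VWF held much of this, at 3.78 to 4.30 CPM in AF and 4.08 to 5.23 CPM in DMSO. COL3A1, at 0.163 to 0.425 CPM in AF and 0.543 to 1.49 CPM in DMSO, was called lower (log2 fold change -1.71, adjusted p = 0.0108, edgeR). No other marker of these cell types was called. EPCAM, MS4A1, HBB and COL1A2 were at 0 in all libraries. Library names share a stem in AF replicates 1 and 2, AF 3 and 4, DMSO 1 and 2, and DMSO 3 and 4, and what a stem marks is not given in the sources used here. The correlation within stems, estimated by limma over all genes, was -0.088. The labels do not say that libraries were separate cultures, so each p-value reflects the spread of these 8 libraries alone, part or all of which may be technical.

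With auranofin, 7 of the 40 tested members rose and 2 fell, and the changes were small. The risers were HERPUD1, DNAJB9, XBP1, MANF, HSPA5, ERO1A and CALR, with log2 fold changes of 0.58 for HERPUD1 to 0.25 for CALR, and SDF2L1 and DERL3 fell. A gene was called at an adjusted p under 0.05 (edgeR's quasi-likelihood test, Benjamini-Hochberg over all genes tested). Of the members 17.5% were called higher, against 7.62% of all genes tested, and 5% lower, against 7.81%. In either direction this was 22.5% of members against 15.4% of all genes. The members were chosen with earlier results of these data known, so these shares only describe the list. The 4 AF values lay above all 4 DMSO values for 10 members (25%, against 9.86% of all genes) and below them for 3 (7.5%, against 9.68%). The median log2 fold change was 0.09 over the 40 members and 0.005 over all genes tested. Of the 31 members not called, 26 had a log2 fold change within 0.15 of 0.

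**Figure D1:**
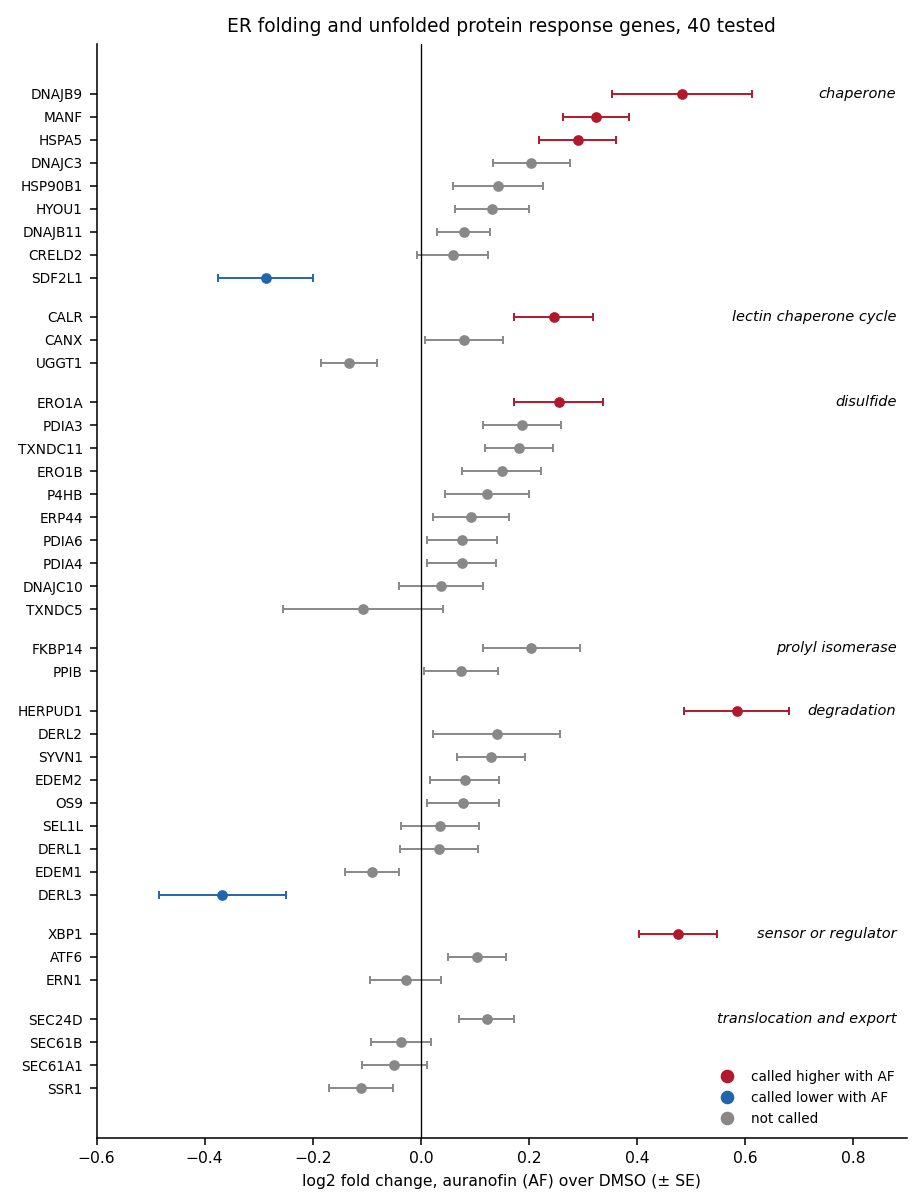
Log2 fold change (AF over DMSO, points with SE bars) of the 40 tested members, down the page by role; red marks members called higher, blue called lower and grey not called. HERPUD1 lies farthest right at 0.58 and DERL3 farthest left at -0.37, and 26 of the 31 grey points lie within 0.15 of 0.

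All 9 calls depended on the scaling, and 6 of the 9 were lost in at least 1 other alternative. HERPUD1, XBP1 and MANF kept their calls in each of 19 alternatives other than scaling by library totals alone, with adjusted p at most 0.0108. With library totals alone, which let the ribosomal DNA of AF replicate 1 into the scaling, edgeR called 0 members (3 at an unadjusted p under 0.05). Of all genes tested, 1.04% were called higher and 3.99% lower there. DESeq2 with its own size factors called 7 higher and 2 lower (8.90% and 9.38% of all genes tested). With library totals alone, the median of all genes moved to -0.15. With the ribosomal DNA rows left out of the totals 6 members were higher and 2 lower (6.23% and 9.27% of all genes tested). With library totals but without AF replicate 1, 7 were higher and 1 lower (5.83% and 8.72% of all genes tested). With TMM and without AF replicate 1 the counts were also 7 and 1. Fewer members were higher without DMSO replicate 2 (3), DMSO replicate 3 (4), AF replicate 3 (5) or DMSO replicate 1 (5). Of all genes tested, 4.26%, 4.31%, 4.68% and 5.67% were higher in those fits, against 7.62% in the main fit. Without AF replicate 3 or 4 or DMSO replicate 1, 2 or 3, 0 members were lower. Of all genes tested, 4.72%, 8.32%, 6.17%, 4.71% and 4.81% were lower there, against 7.81% in the main fit. The called members kept their direction in all 8 fits that left out 1 library, and their log2 fold changes are given with each gene.

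Promoter sequences of some members hold matches to elements of the kinds that ATF6, XBP1 and ATF4 are known to bind. RefSeq windows on GRCh38.p14, from 250 bases before to 50 after the start, were found for 36 of the 41 members, and both strands were searched. Where a gene had several windows, a match in any was counted. The ER stress response element (ERSE), CCAAT and then CCACG after 9 bases, was in the windows of 8 members: HSPA5, HSP90B1, CALR, CANX, CRELD2, PDIA6, ERO1B and XBP1. Over all 27305 genes with a window 0.0916% held it, and 0.142% of the 11303 tested genes with a window. Those tested genes with ERSE number 16, and the 8 members are among them. The members were chosen as genes of this response, so the shares given here describe the list and test nothing. ERSE-II, ATTGG and then CCACG after 1 base, was found for HERPUD1, HYOU1 and SDF2L1, in 0.0696% of all genes and in 0.115% of those tested. TGACGTGG, the core of the unfolded protein response element (UPRE core), was found for HYOU1, DNAJC10, TXNDC5 and TXNDC11, in 0.927% of all genes and in 1.19% of those tested. TGATGNAA, the element bound by ATF4 and its partners (CARE), was found for HERPUD1 alone among the members. This was 2.78% of the 36 members, against 4.46% of all genes and 2.79% of those tested. CCAAT by itself was found for 80.6% of the 36 members against 39.7% of all genes and 42.6% of those tested, and CCACG by itself for 72.2% of the members, against 42.1% of all genes and 56.0% of those tested. The matches below are in capitals, on the strand of the gene; the first 4 hold ERSE and the last 3 ERSE-II.
HSPA5, chr9:125241381-125241419, minus strand: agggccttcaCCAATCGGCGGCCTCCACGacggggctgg
CALR, chr19:12938374-12938412, plus strand: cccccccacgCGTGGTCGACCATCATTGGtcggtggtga
XBP1, chr22:28800593-28800631, minus strand: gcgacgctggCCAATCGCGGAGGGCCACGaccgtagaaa
HSP90B1, chr12:103930206-103930349, plus strand: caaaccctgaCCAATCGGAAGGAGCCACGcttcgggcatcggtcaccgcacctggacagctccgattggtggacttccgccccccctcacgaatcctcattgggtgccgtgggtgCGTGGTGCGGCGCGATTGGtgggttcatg
HERPUD1, chr16:56931956-56932045, plus strand: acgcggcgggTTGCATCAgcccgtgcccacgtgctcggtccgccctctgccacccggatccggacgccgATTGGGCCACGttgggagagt
HYOU1, chr11:119057264-119057403, minus strand: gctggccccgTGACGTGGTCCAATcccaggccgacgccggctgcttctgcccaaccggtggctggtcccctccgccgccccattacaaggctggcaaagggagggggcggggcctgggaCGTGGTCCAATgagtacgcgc
SDF2L1, chr22:21642104-21642134, plus strand: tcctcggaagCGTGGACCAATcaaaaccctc

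In HYOU1 the first capitals are the UPRE core and ERSE-II, which overlap, and in HERPUD1 the first capitals are the ATF4 element on the opposite strand. Members with the same element differed in their calls. Of the 8 with ERSE, HSPA5, CALR and XBP1 were called higher and the other 5 were not called. Of the 3 with ERSE-II, HERPUD1 was called higher, SDF2L1 lower, and HYOU1 was not called. No factor binding was measured, and a match is a description of the letters.

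**Figure D2:**
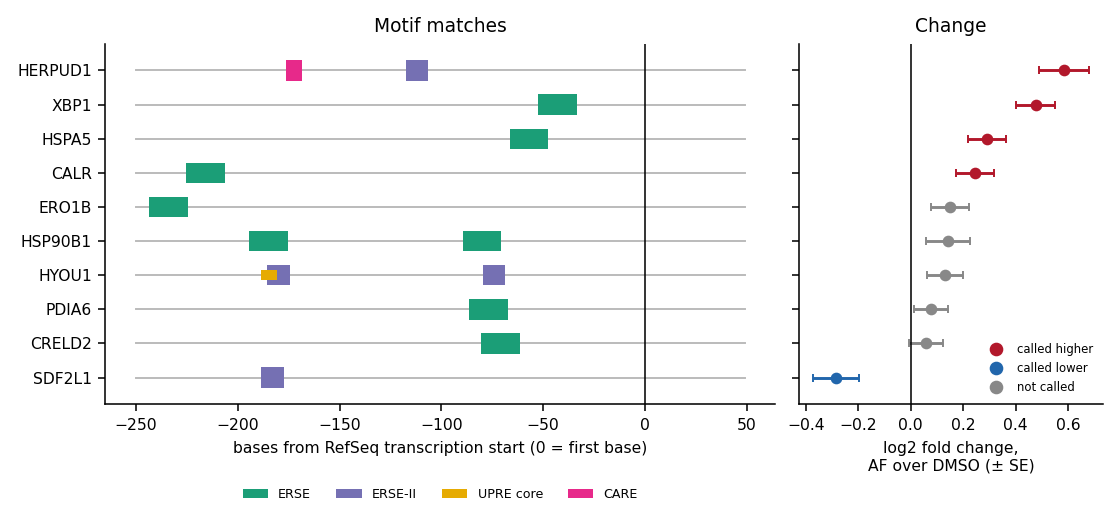
Left, positions of motif matches in bases from the RefSeq start for the 10 members with ERSE or ERSE-II other than CANX, whose match lies at different distances in its several windows; right, log2 fold change (AF over DMSO, ± SE), red called higher, blue called lower and grey not called. HERPUD1 and SDF2L1, both with ERSE-II, stand at the top and bottom with 0.58 and -0.29.

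Among the sensors and regulators, XBP1 rose, while the genes of its splicing enzyme IRE1 and of ATF6 were not called. XBP1 (ENSG00000100219.16, GRCh38 chromosome 22, 28794555 to 28800597) encodes the transcription factor of the IRE1 arm. It had 209, 210.5, 207 and 223 CPM in AF replicates 1 to 4, against 163, 134, 141 and 172 CPM in DMSO replicates 1 to 4. All AF values lay above the highest DMSO value, and DMSO replicates 2 and 3 were the lowest. The log2 fold change was 0.48 ± 0.07 (SE; adjusted p = 0.000564, edgeR). A count per gene cannot tell the spliced from the unspliced XBP1 message. ATF6 had 146, 148, 154 and 166 CPM in AF, against 145, 138, 142 and 145 CPM in DMSO. Its groups did not overlap, but the lowest AF and the highest DMSO value nearly met, and the log2 fold change of 0.10 ± 0.05 did not pass (adjusted p = 0.214, edgeR). ERN1, the gene of IRE1, had 56.2, 54.9, 51.8 and 50.0 CPM in AF, against 54.7, 51.1, 51.9 and 59.3 CPM in DMSO. These groups overlapped (log2 fold change -0.03 ± 0.07, adjusted p = 0.816, edgeR). WFS1, an ER membrane protein gene, had 5 to 10 counts in AF libraries and 6 to 17 in DMSO libraries, too few to be tested.

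Of the 9 chaperones and co-chaperones, 3 rose and 1 fell. HSPA5 (ENSG00000044574.7, chromosome 9, 125234853 to 125241330), the gene of BiP, had 2814, 2778, 2803 and 3025 CPM in AF, against 2335, 2292, 2347 and 2367 CPM in DMSO. The AF group lay wholly above the DMSO group, whose values were close together. HSPA5 averaged 2855 ± 114 CPM in AF and 2335 ± 31.7 CPM in DMSO (SD, n = 4 each), a rise of 22.3% (log2 fold change 0.29 ± 0.07, adjusted p = 0.0138, edgeR). Without DMSO replicate 2 its adjusted p was 0.0660. Its log2 fold change ran between 0.26 and 0.30 when each library was left out in turn. MANF (ENSG00000145050.16, chromosome 3, 51385047 to 51389397), a secreted and ER-resident factor that binds BiP, had 117, 123, 109 and 127 CPM in AF, against 96.8, 88.9, 94.2 and 101 CPM in DMSO. Its groups did not overlap either (log2 fold change 0.32 ± 0.06, adjusted p = 0.0024, edgeR).

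DNAJB9 (ENSG00000128590.4, chromosome 7, 108569568 to 108574850), which encodes the BiP co-chaperone ERdj4, had the widest spread of any tested member within a group. It had 66.4, 53.4, 57.4 and 81.8 CPM in AF, against 51.9, 37.6, 41.5 and 54.1 CPM in DMSO. Replicates 1 and 4 were high and 2 and 3 low in both groups, and AF replicate 2 fell below DMSO replicate 4. The log2 fold change was 0.48 ± 0.13 (adjusted p = 0.0210, edgeR). It did not pass when DMSO replicate 2 (adjusted p = 0.0728) or 3 (0.0684) was left out, nor with DESeq2 (0.0521). Without 1 library it lay between 0.35 and 0.57 on the log2 scale.

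SDF2L1 (ENSG00000128228.4, chromosome 22, 21642261 to 21644298), a partner of ERdj co-chaperones in the BiP cycle, went the other way. It had 42.8, 43.0, 36.8 and 35.0 CPM in AF, against 46.1, 51.1, 52.4 and 42.4 CPM in DMSO. The groups overlapped, since DMSO replicate 4 lay below AF replicates 1 and 2. Its log2 fold change was -0.29 ± 0.09 (adjusted p = 0.0392, edgeR). The call was lost without AF replicate 3 (adjusted p = 0.141), AF replicate 4 (0.0878), DMSO replicate 1 (0.0775), DMSO replicate 2 (0.148) or DMSO replicate 3 (0.158). Without 1 library the log2 fold change lay between -0.34 and -0.23.

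The other 5 chaperones were not called. HSP90B1, the gene of the ER HSP90 paralog GRP94, had 3089.5, 3089.7, 3254 and 3668 CPM in AF, against 2954, 2818, 2917 and 3183 CPM in DMSO. DMSO replicate 4 lay above AF replicates 1 and 2, and the log2 fold change of 0.14 ± 0.08 did not pass (adjusted p = 0.271, edgeR). HYOU1, a large ER HSP70 that serves as nucleotide exchange factor of BiP, had 1222 to 1359.6 CPM in AF and 1124 to 1201 CPM in DMSO, with no overlap and a log2 fold change of 0.13 ± 0.07 (adjusted p = 0.220, edgeR). The co-chaperone genes DNAJC3 and DNAJB11 had log2 fold changes of 0.20 and 0.08, and CRELD2, an ER stress target that encodes a secreted factor, 0.06. DNAJC3 (adjusted p = 0.0637, edgeR) passed without AF replicate 2 (0.0494) or DMSO replicate 4 (0.0246).

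**Figure D3:**
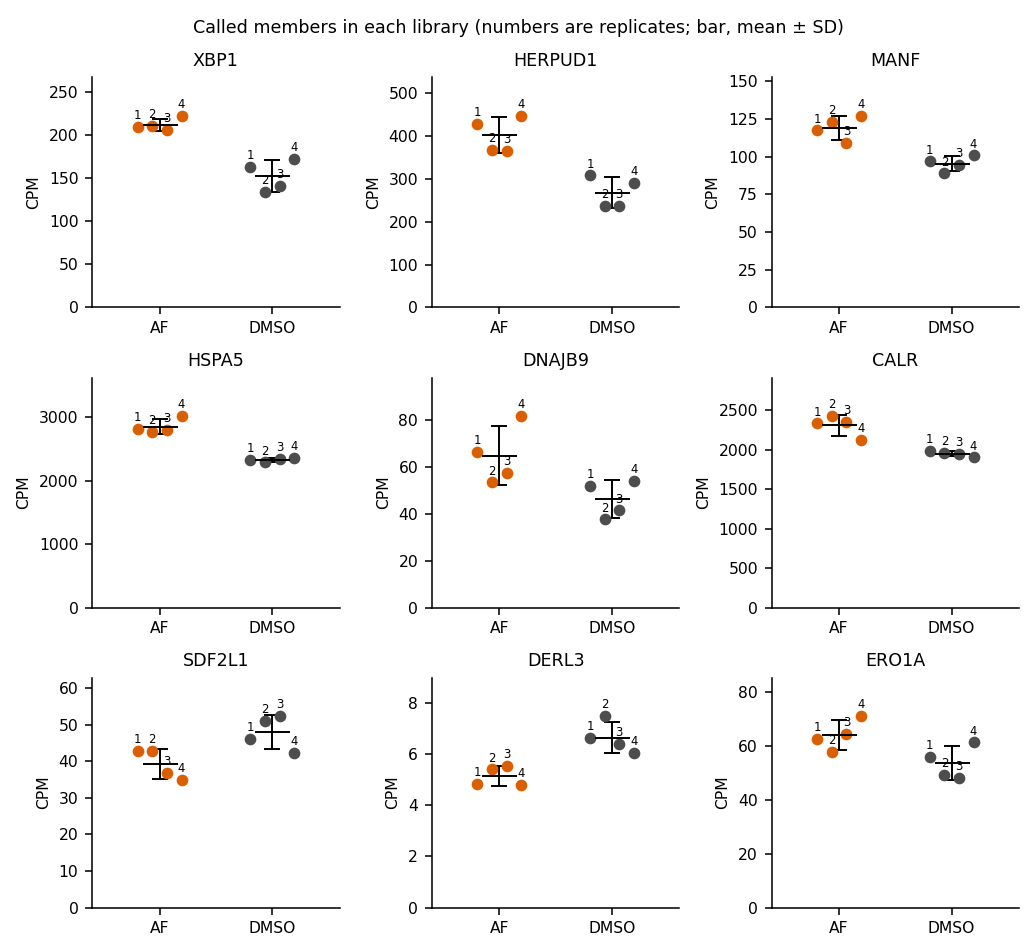
CPM (axes start at 0) of the 9 called members in each library, AF left of DMSO, with replicate numbers beside the points and bars for the mean ± SD of 4 libraries. The groups are apart for XBP1, HERPUD1, MANF, HSPA5, CALR and DERL3, and overlap for DNAJB9, SDF2L1 and ERO1A.

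In the lectin cycle, in which calnexin and calreticulin hold glycoproteins until the glucosyltransferase UGGT1 finds them folded, CALR rose. CALR (ENSG00000179218.13, chromosome 19, 12938578 to 12944489) encodes calreticulin. It had 2331, 2427, 2347 and 2124 CPM in AF, against 1979.8, 1959, 1945 and 1901 CPM in DMSO. The groups did not overlap, and AF replicate 4 was the lowest of its group, the reverse of HSPA5, where it was the highest. The log2 fold change was 0.25 ± 0.07 (adjusted p = 0.0345, edgeR). Leaving out AF replicate 2 (adjusted p = 0.0991), AF replicate 3 (0.0969) or DMSO replicate 1 (0.0766), 2 (0.103), 3 (0.0925) or 4 (0.0727) ended the call, as did adding up libraries with 1 name stem (0.0742). Over the fits without 1 library the log2 fold change stayed between 0.22 and 0.28. CANX, the gene of calnexin, gave a log2 fold change of 0.08 ± 0.07 (adjusted p = 0.492, edgeR). UGGT1 had 207 to 216 CPM in AF and 227 to 244 CPM in DMSO. Its AF values all lay below the DMSO values, and its log2 fold change of -0.13 ± 0.05 did not pass (adjusted p = 0.0984, edgeR).

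Of the 10 disulfide enzymes only ERO1A was called, barely. ERO1A (ENSG00000197930.12, chromosome 14, 52639916 to 52695900), the oxidase that passes electrons from protein disulfide isomerase to oxygen, had 62.5, 57.7, 64.4 and 71.0 CPM in AF, against 55.9, 49.1, 48.0 and 61.2 CPM in DMSO. AF replicate 2 lay below DMSO replicate 4, so the groups overlapped. The log2 fold change was 0.26 ± 0.08 (adjusted p = 0.0486, edgeR). The call was lost without AF replicate 1 (adjusted p = 0.0679), 3 (0.113) or 4 (0.104) and without DMSO replicate 1 (0.0704), 2 (0.152) or 3 (0.156), with log2 fold changes of 0.20 to 0.32 over the 8 fits without 1 library. It was also lost with library totals without ribosomal DNA rows (0.0862) and with library totals without AF replicate 1 (0.105). A block for the suffix of the library name ended it too (0.0615). Its paralog ERO1B gave a log2 fold change of 0.15 ± 0.07 (adjusted p = 0.184, edgeR).

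Log2 fold changes of the isomerases were positive but small: 0.19 for PDIA3, the partner of the lectin chaperones, 0.12 for P4HB, the founding protein disulfide isomerase, and 0.08 for PDIA4 and for PDIA6. PDIA3 had 984 to 1152 CPM in AF and 882 to 942 CPM in DMSO, with no overlap, and did not pass (adjusted p = 0.0951, edgeR). Without AF replicate 1 it passed (0.0295), as it did with DESeq2 (0.0246). The row of its pseudogene PDIA3P1 held up to 22.5% as many counts as PDIA3, and reads may be divided unevenly between them. For TXNDC11, a thioredoxin-domain gene of the ER, the log2 fold change was 0.18 (adjusted p = 0.0671, edgeR). ERP44, which retains ERO1 in the early secretory pathway, and DNAJC10, the ER reductase ERdj5, were at 0.09 and 0.04. TXNDC5 was at -0.11 from 2.65 to 3.24 CPM in AF and 2.75 to 3.49 CPM in DMSO. A read-through gene covers 60.6% of its exon bases on the same strand, so its counts are uncertain. The prolyl isomerase genes PPIB and FKBP14 were not called, with log2 fold changes of 0.07 and 0.20. The 4 AF values of FKBP14 (17.5 to 21.1 CPM) lay above its DMSO values (16.1 to 17.1 CPM).

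Degradation genes gave both the largest rise and the largest fall among the members. HERPUD1 (ENSG00000051108.14, chromosome 16, 56932048 to 56944863) encodes an ER membrane protein of the HRD1 degradation complex. It had 427, 367, 366 and 447 CPM in AF, against 308, 237, 236 and 291 CPM in DMSO. The groups did not overlap, and in both of them replicates 1 and 4 stood above 2 and 3. HERPUD1 averaged 402 ± 41.6 CPM in AF and 268 ± 36.9 CPM in DMSO (SD, n = 4 each), a rise of 50.0% (log2 fold change 0.58 ± 0.10, adjusted p = 0.00102, edgeR). Over the 19 alternatives other than library totals alone, its log2 fold change ran between 0.53 and 0.66.

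DERL3 (ENSG00000099958.14, chromosome 22, 23834503 to 23839128), one of the derlins of the retrotranslocation channel, had 4.83, 5.40, 5.53 and 4.80 CPM in AF, against 6.64, 7.49, 6.39 and 6.05 CPM in DMSO. All AF values lay below all DMSO values, from 91 to 194 counts per library (log2 fold change -0.37 ± 0.12, adjusted p = 0.0465, edgeR). Leaving out any library other than DMSO replicate 4 ended the call. The adjusted p was 0.0956, 0.0717, 0.0801 and 0.0812 without AF replicates 1 to 4, and 0.0906, 0.161 and 0.0865 without DMSO replicates 1 to 3. Its log2 fold change lay between -0.41 and -0.31 in the 8 fits without 1 library. Summing libraries of a name stem also ended the call (0.0862), as did a block for the suffix of the library name (0.0635). So did dropping the filter on low counts (0.112) and library totals without AF replicate 1 (0.0838). Exons of SMARCB1 on the opposite strand cover 77.0% of the exon bases of DERL3. The strand setting of the counting is not given in the sources used here, so reads of the SMARCB1 transcript may be among the DERL3 counts. Overlap on the opposite strand passed 10% of exon bases in 7 members: DERL3, PPIB (27.2%), PDIA6 (25.2%), PDIA3 (18.9%), DNAJB11 (15.3%), OS9 (13.5%) and TXNDC11 (11.2%). Their counts carry the same doubt.

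The remaining 7 degradation genes were not called. DERL1 and DERL2, the other derlins, had log2 fold changes of 0.03 and 0.14. The ubiquitin ligase gene SYVN1 (HRD1) had 0.13 (adjusted p = 0.184, edgeR) and passed without AF replicate 4 (0.0312), while its partner SEL1L had 0.04. The lectin gene OS9 and the mannosidase-like gene EDEM2, which handle misfolded glycoproteins, both had 0.08. EDEM1 had 183 to 187 CPM in AF and 189.8 to 207 CPM in DMSO. Its groups did not overlap, and its log2 fold change of -0.09 ± 0.05 did not pass (adjusted p = 0.241, edgeR).

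Genes of the entry and exit gates stayed near 0, and 0 of 4 were called (1, SEC24D, had an unadjusted p under 0.05, and DESeq2 also called 0). The log2 fold changes of the translocation channel genes SEC61A1 and SEC61B were -0.05 and -0.04, and that of SSR1, of the translocon-associated complex, was -0.11. SEC24D, a cargo adaptor of COPII coats, had 160.2 to 174 CPM in AF and 145 to 157 CPM in DMSO, with no overlap (log2 fold change 0.12 ± 0.05, adjusted p = 0.119, edgeR).

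**Figure D4:**
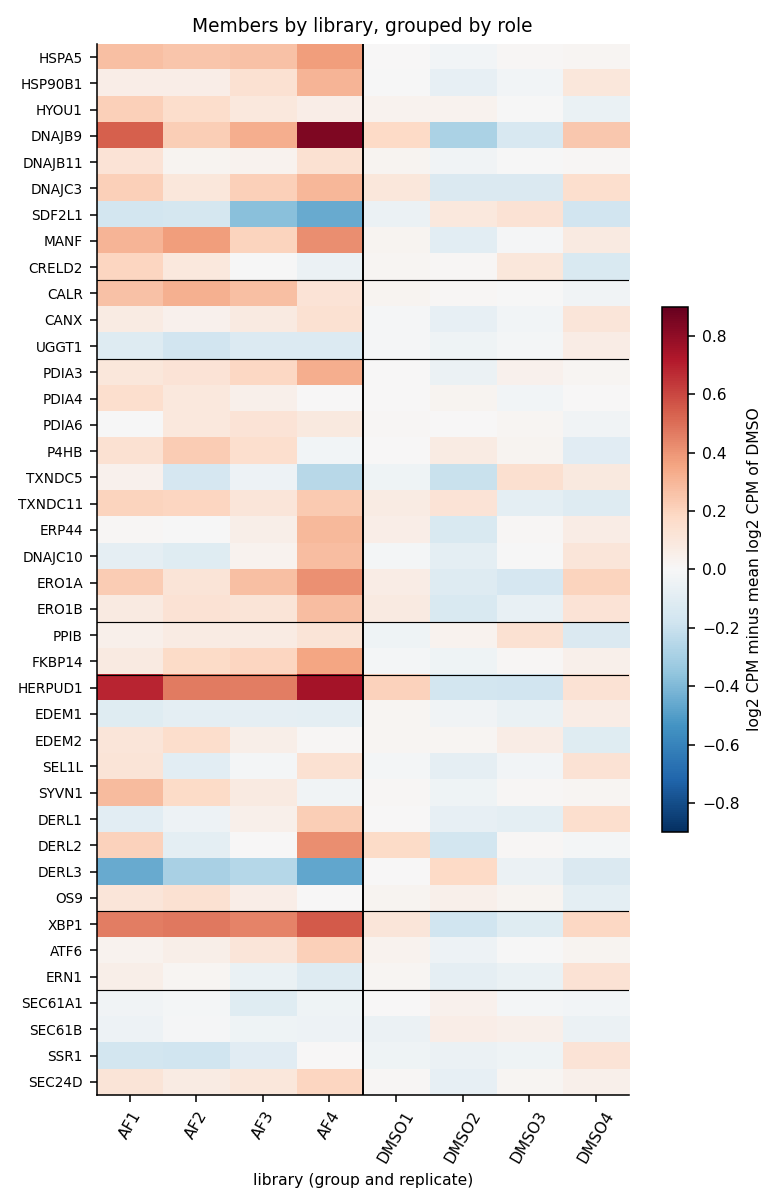
Log2 CPM of the 40 tested members in each library minus the mean log2 CPM of the DMSO libraries (colour, red above and blue below), AF libraries left of DMSO libraries, rows by role. XBP1, HERPUD1, HSPA5 and MANF are red in all 4 AF libraries, and DERL3 is blue in all 4.

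The libraries within a group were not alike. AF replicate 4 gave the highest of the 4 AF values for 23 of the 40 tested members, and DMSO replicate 4 the highest of the DMSO values for 20. DMSO replicate 2 was the lowest of its group for 22. The median over tested members of the log2 ratio to the DMSO mean was 0.10, 0.08, 0.08 and 0.14 in AF replicates 1 to 4, against 0.01, -0.04, -0.01 and 0.03 in DMSO replicates 1 to 4, while the median over all genes tested lay between -0.0011 and 0.0055 in every library. Together the 41 members made up 20394, 20359, 20390.3 and 21051 CPM in AF, against 18593, 18154, 18397 and 18734 CPM in DMSO, so the summed groups did not overlap. HSPA5, HSP90B1 and CALR hold much of this sum.

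Per kilobase of exon (CPM per kb, with GENCODE 29 lengths), the order of the members was nearly the same in both groups. CALR was first, at 850.2 ± 47.7 in AF and 717 ± 12.3 in DMSO (SD, n = 4 each). HSPA5 was second in AF and the third in DMSO (731 ± 29.2 and 598 ± 8.11), and HSP90B1 the third in AF and second in DMSO (698 ± 58.2 and 632 ± 32.9). The ranges of HSPA5 and HSP90B1 over libraries overlapped in both groups. P4HB, CANX and PDIA3 followed in both groups, from 325 to 246 in AF and from 298 to 216 in DMSO. Of the sensors, ATF6 ranked 28 of the 41 members in both groups, at 19.4 ± 1.15 in AF and 18.1 ± 0.436 in DMSO. ERN1 ranked 36 in both groups, at 4.90 ± 0.260 in AF and 4.99 ± 0.340 in DMSO. XBP1 stood at 70.1 ± 2.33 in AF and 50.4 ± 6.03 in DMSO. DERL3, TXNDC5 and WFS1 were the lowest in both groups.

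**Figure D5:**
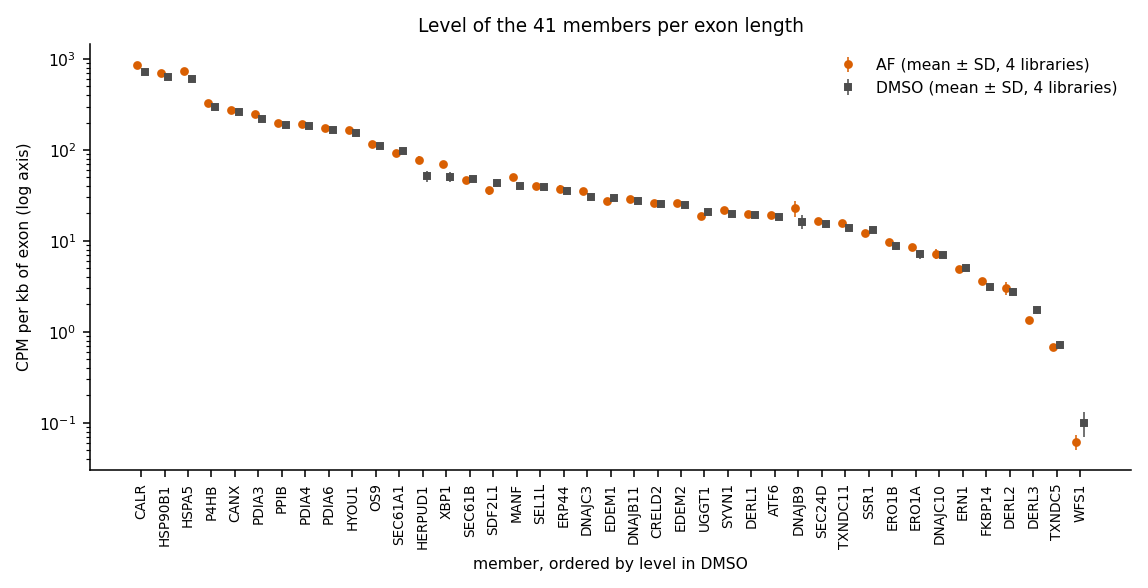
Level of the 41 members in CPM per kb of exon (log axis, mean ± SD of 4 libraries), AF circles left of DMSO squares, ordered by the DMSO level. CALR is first at 850.2 in AF and 717 in DMSO, and WFS1 last at 0.0615 in AF and 0.0995 in DMSO.

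Among 125 other genes of the ER and its stress signals, of which 123 were tested, 14 rose and 2 fell. This was 11.4% higher and 1.63% lower, against 7.62% and 7.81% of all genes tested. These lists were chosen with earlier results of these data known, so the shares only describe them. A list of 12 genes of PERK signalling and stress transcription held 7 of the 14. ATF4 and its targets in this list are also known to respond to the other kinases of eIF2 alpha, and no kinase activity was measured. Of the 12 genes, 7 were called higher and 0 lower, with a median log2 fold change of 0.46. DDIT3, the gene of the pro-death factor CHOP, had 235, 201, 177 and 225 CPM in AF, against 140.2, 107, 104 and 131 CPM in DMSO. All AF values lay above the DMSO values, and replicates 1 and 4 stood above 2 and 3 in both groups, as for HERPUD1 (log2 fold change 0.80 ± 0.10, adjusted p = 0.000119, edgeR). ATF3, a stress transcription factor gene, and PPP1R15A, which encodes a phosphatase subunit that acts on eIF2 alpha, rose by 1.14 ± 0.16 and 0.55 ± 0.08 on the log2 scale, and ATF4 by 0.29 ± 0.07 (adjusted p = 0.000336, 0.000249 and 0.0102, edgeR). The gene of PERK itself, EIF2AK3, gave a log2 fold change of 0.23 ± 0.10 (adjusted p = 0.132, edgeR). All 7 of these genes were called in each of the 8 leave-one-out fits, and DDIT3 and ATF3 alone with library totals alone. In the other lists 7 of 111 genes (6.31%) were called higher.

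Of 10 genes of ATF6 processing and related ER-bound factors, MBTPS1, the protease that first cuts ATF6, rose by 0.20 ± 0.05 and CREBRF, a regulator of ER-bound CREB3, by 0.64 ± 0.13 (adjusted p = 0.0121 and 0.00525, edgeR). Without AF replicate 3 the MBTPS1 call was lost (0.0532). For folding enzymes outside the members (20 tested), N-glycosylation (16) and ER calcium (9), 0 genes were called by edgeR (7, 1 and 2 at an unadjusted p under 0.05, and 1, 0 and 0 by DESeq2). In the other 3 lists the called genes were MARCHF6 and SELENOK of degradation, SEC62 (higher) and TRAM2 (lower) of translocation, and SEC31A and SEC23A (higher) and PREB (lower) of COPII export. Each of these 7 calls was lost without AF replicate 3 (adjusted p = 0.0854 to 0.170, edgeR) and without DMSO replicate 3 (0.0684 to 0.154), and other single libraries ended some of them.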

How the data were processed

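The authors deposited 1 table of raw counts per gene for 8 libraries, all whole and not normalised. Per the submitters' processing notes the tools were STAR 2.6.1d, Subread 1.6.3 and featureCounts and the build GRCh38, listed without roles. How strand and multi-mapped reads were handled, and which annotation was used, is not given in the sources used here. Columns were matched to samples by title. R 4.3.3 with edgeR 4.0.16 fitted the counts (glmQLFit and glmQLFTest after filterByExpr at its defaults and TMM scaling): drug against vehicle, all 8 libraries, no block, 6 residual degrees of freedom, Benjamini-Hochberg adjustment over the 17535 genes tested, threshold 0.05. A standard error is the log2 fold change divided by the square root of F. The common biological coefficient of variation came to 12.8%. CPM are relative to library sizes after TMM. As a check of the code, the fit was run on counts simulated from its own dispersions with independent libraries. That run says nothing about whether the calls given here are right.

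No 2 libraries of a group agreed within sampling noise: the lowest chi-square per degree of freedom over genes with at least 10 counts in the pair was 2.78 (DMSO replicates 2 and 3). Positions, exon lengths and overlaps come from GENCODE 29, which may differ from the authors' annotation; promoters come from RefSeq. Members and gene lists were chosen with earlier results of these data known. Values in every library are given for called members (up to 4 per role by smallest p) and for HSPA5, HSP90B1, XBP1, ATF6, ERN1, HERPUD1, SDF2L1 and DERL3; of each other list up to 3 called genes with the smallest p are named, and EIF2AK3, ATF4 and DDIT3 always. Other members are named with shorter values. Alternatives were DESeq2 1.42.0, limma 3.58.1 voom with a correlation within library name stems, other scalings and filters, blocks, summed libraries and leaving out each library. Reads carry no stated molecular identifier and may include PCR copies.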

Additional observations from a re-analysis of the deposited data

Results flagged for a closer look

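Over 80 groups (40 tested members in AF and in DMSO), the highest or lowest of the 4 values stood apart from the rest by Dixon's 95% limit in 4 cases. Chance gives about 1 in 20 groups, or 4 cases, so their number is no more than chance would give. HSPA5 was high in AF replicate 4 (3025 CPM, the next at 2814), and ERP44 also in AF replicate 4 (209 CPM, the next at 177). SYVN1 was low in DMSO replicate 2 (105 CPM, the next at 109), within a narrow group. SSR1 was high in DMSO replicate 4 (164 CPM, the next at 147). Of these genes HSPA5 was called, and its call held without AF replicate 4.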

How the results depend on the processing

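Of 20 alternatives, library totals alone moved the results most: 883 genes were called, 183 higher and 700 lower (20.7% of calls higher, against 49.4%), 0 members were higher and 0 lower, and the member median was -0.058 where that of all genes was -0.15. Log2 fold changes that were positive became negative there for HSP90B1 (-0.00081), HYOU1 (-0.027), DNAJB11 (-0.075), CRELD2 (-0.10), CANX (-0.070), PDIA4 (-0.082), PDIA6 (-0.066), P4HB (-0.027), ERP44 (-0.050), DNAJC10 (-0.10), PPIB (-0.072), EDEM2 (-0.070), SEL1L (-0.12), SYVN1 (-0.036), DERL1 (-0.11), DERL2 (-0.014), OS9 (-0.075), ATF6 (-0.040) and SEC24D (-0.028). With library totals alone and AF replicates 2 to 4, CRELD2 (-0.0045) and SEL1L (-0.0088) changed sign and 1 member was lower; this scaling, and that of totals without ribosomal DNA rows, were chosen after seeing the data. Leaving out 1 library at a time, DNAJC10 ran from -0.052 (without AF replicate 4) to 0.085, DERL1 from -0.032 (without AF replicate 4) to 0.087 and ERN1 from -0.058 to 0.017 (without DMSO replicate 4), with ERN1 at 0.0015 without AF replicate 4. None of the genes that changed sign was called with the other sign. With no filter on low counts, 8 members were higher, DNAJC3 now among them (adjusted p = 0.0299, edgeR), and 1 lower (4.46% and 4.17% of all genes). With the name suffix as a block, 6 were higher, without ERO1A, and 1 lower (6.89% and 7.28% of all genes). With libraries of a name stem summed, 6 were higher, without CALR, and 1 lower (6.38% and 6.54% of all genes). Leaving out 1 library at a time gave 1616 to 2964 genes, 768 to 1462 higher and 833 to 1502 lower, with 3 to 7 members higher, 0 to 2 lower and a member median of 0.084 to 0.10. The genes called fell to 1660 without AF replicate 3, 1616 without DMSO replicate 2 and 1648 without DMSO replicate 3. These fits hold fewer libraries, and any other cause was not tested.

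Deviations from the group means correlated between libraries of the same number by 0.0937, 0.129, 0.0288 and 0.192. AF replicates 1, 2 and 4 each correlated best with the DMSO replicate of their own number. AF replicate 3 correlated best with DMSO replicate 2 (0.0416). The labels do not say that the numbers mark pairs, so the main fit took no block. With the replicate number as a block, 4188 genes were called, 2102 higher and 2086 lower, with 11 members higher and 3 lower. Beyond the 9 called without it, HSP90B1 (adjusted p = 0.0451, edgeR), DNAJC3 (0.00764), PDIA3 (0.0226) and TXNDC11 (0.0289) were higher and UGGT1 (0.0472) lower, and EIF2AK3 outside the members was higher (0.0181). Depth limits DERL3, TXNDC5 and WFS1, the members with the fewest counts per kb.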
